A study of Mus musculus with 12 samples.

Results

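The insulin-like growth factor (IGF) system was followed in mouse oocytes through 10 of the 24562 genes counted in every pool. They were the ligand genes Igf1 and Igf2, the receptor genes Igf1r, Igf2r and Insr, the binding protein genes Igfbp2, Igfbp3, Igfbp4 and Igfbp5, and Pappa, which encodes a protease. The 10 genes were taken from the tables of counts by their symbols. The set was selected on measured values in 2 cases: Igfbp5 was chosen by its counts, already known to differ between competent and non-competent oocytes in these data, and Pappa by its counts, known to differ between PND 16 large and PND 13. Those differences, and others that rest on the same pools, are therefore given as descriptions and not as tests.

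RNA-Seq was performed on 12 pools of 18 to 45 oocytes from CD-1 mice without gonadotropin stimulation, with n = 3 pools in each of 4 cohorts. The youngest mice were at postnatal day (PND) 13 and the oldest at PND 40, and the mice of PND 16 were divided by body weight into a lighter cohort, PND 16 small, and a heavier one, PND 16 large. In all cohorts the oocytes came from antral follicles, were freed of cumulus cells by pipetting and had an intact germinal vesicle, and all were handled in milrinone, an inhibitor of phosphodiesterase 3 that holds oocytes in meiotic arrest. PND 16 large and PND 40 oocytes are called competent for meiotic maturation, and PND 13 and PND 16 small oocytes non-competent, as groups of 6 pools each.

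IGF1 and IGF2 act through the type 1 IGF receptor and, with the insulin receptor, signal to the PI3K and Ras pathways, whereas the type 2 receptor removes IGF2. In fluids most IGF is held by binding proteins, and the protease PAPP-A frees it by cutting IGFBP4 and IGFBP5. In the follicle the ligands, the binding proteins and the protease are known mainly from granulosa and theca cells, so a pool of denuded oocytes can carry their transcripts from the oocyte or from attached somatic cells.

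Levels are given as CPM, the counts of a gene per 1000000 counted reads of its pool, made comparable across pools with TMM factors. A gene was called between groups if it changed by at least 1.5-fold with an adjusted p not above 0.05 in edgeR's quasi-likelihood test. The pools held 17671193 to 27418358 counted reads. The 12 oocyte markers summed to between 15687 and 18489 CPM in the 12 pools, far above the other marker lists. The 14 granulosa cell markers summed to between 131 and 570 CPM, with the 3 highest sums in replicates 1 and 3 of PND 13 (466 and 541 CPM) and replicate 2 of PND 16 small (570 CPM). In the other 9 pools the sum was between 131 and 254 CPM. Nr5a2, one of these markers, was at 87.9 to 146 CPM in the 12 pools, and without it the 3 highest sums were 322, 395 and 452 CPM and the other 9 were between 42.8 and 120 CPM. Theca markers summed to 11.5 to 83.9 CPM, stroma markers to 5.25 to 46.3 CPM, endothelial markers to 85.2 to 107 CPM and leukocyte markers to 0.117 to 1.82 CPM. In these bulk pools, fewer cells of a type and less RNA per cell cannot be told apart.

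Igf1r and Igfbp3 were called between competent and non-competent oocytes. Igfbp5 was called there too, but it was chosen by that difference, so its call is a description. All 3 genes have a promoter entry in RefSeq. The 250 bases before their start are shown because these are the genes the results turn on (GRCm38.p6, 5′ to 3′ on the strand of the gene). Capitals mark GC boxes (GGGCGG on either strand).
Igf1r, chr7:67952007-67952256, + strand: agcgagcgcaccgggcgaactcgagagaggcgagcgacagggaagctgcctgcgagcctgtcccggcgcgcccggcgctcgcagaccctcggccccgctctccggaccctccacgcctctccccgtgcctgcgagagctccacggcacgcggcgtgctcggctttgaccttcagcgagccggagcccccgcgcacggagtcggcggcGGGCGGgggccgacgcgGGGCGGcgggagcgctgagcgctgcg
Igfbp3, chr11:7213924-7214173, − strand: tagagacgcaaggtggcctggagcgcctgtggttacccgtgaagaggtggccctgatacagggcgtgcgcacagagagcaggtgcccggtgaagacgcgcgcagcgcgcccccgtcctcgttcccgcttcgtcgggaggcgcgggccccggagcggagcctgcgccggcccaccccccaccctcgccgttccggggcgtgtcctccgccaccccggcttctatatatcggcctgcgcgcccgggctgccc
Igfbp5, chr1:72874866-72875115, − strand: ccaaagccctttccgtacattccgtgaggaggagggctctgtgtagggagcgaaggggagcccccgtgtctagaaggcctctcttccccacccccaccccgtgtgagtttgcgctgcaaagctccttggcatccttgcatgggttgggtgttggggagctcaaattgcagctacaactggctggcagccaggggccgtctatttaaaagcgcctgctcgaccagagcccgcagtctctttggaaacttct
The Igf1r window held 2 GC boxes, 42 CpG dinucleotides and 77.6% G and C. The Igfbp3 window had 32 CpG dinucleotides and 73.2% G and C, and the Igfbp5 window 10 CpG dinucleotides and 58.8% G and C. GGGCGG was found in 32.7% of the 32851 promoter windows of this length, and TATAAA and GTAAACA, both searched on both strands, in 12.4% and 3.17%. None of the 3 windows held TATAAA or GTAAACA. Of the 10 genes, 8 matched an entry, and Insr and Pappa did not. RefSeq places the starts of Igf1r and Igfbp5 apart from those of GENCODE, which gives the positions of the genes.

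Per kilobase of exon, the receptors Igf2r and Igf1r had the highest levels of the system, at means of 25.6 and 6.97 CPM per kb over the 12 pools. Igfbp5 followed at 4.32 CPM per kb, Insr at 0.968, Igf1 at 0.818, Igfbp3 at 0.763 and Igf2 at 0.512 CPM per kb. Igfbp2, Igfbp4 and Pappa were lowest, at 0.372, 0.107 and 0.0721 CPM per kb. The place of Igfbp5 depended on the cohort. Its mean was 14.1 ± 10.7 CPM per kb at PND 13 (SD, n = 3), above that of Igf1r (8.66 ± 1.24), and 0.500 ± 0.0906 CPM per kb in PND 16 large, below that of Insr (0.880 ± 0.121).

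**Figure D1:**
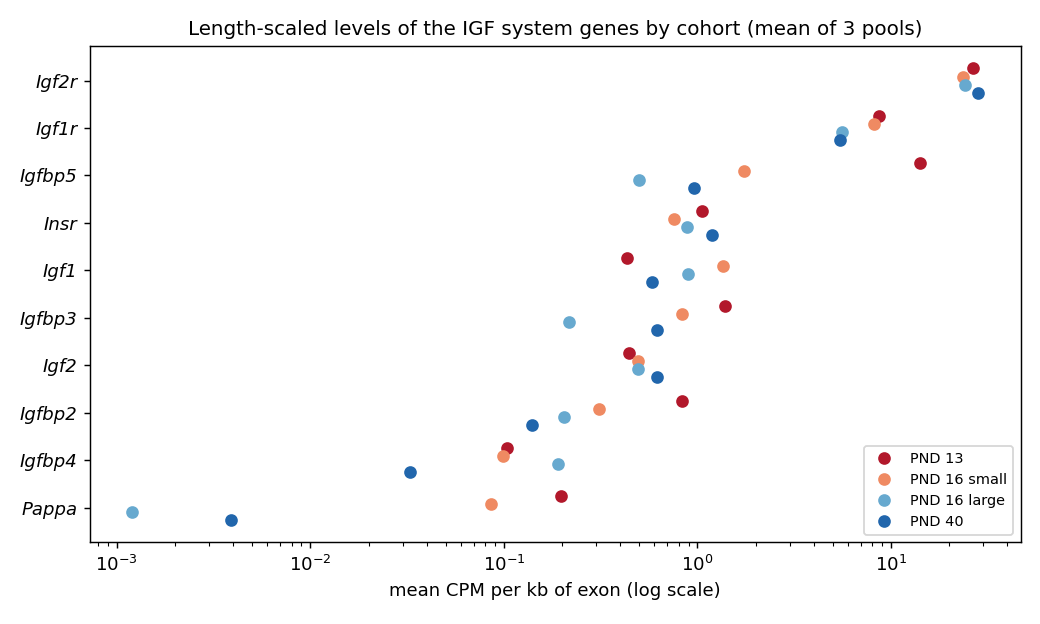
Mean level of each gene of the IGF system in the 4 cohorts, as CPM per kilobase of exon on a log axis, 1 point per cohort (mean of 3 pools). Igf2r stays within a narrow range, and Igf1r goes from 8.66 CPM per kb at PND 13 to 5.47 CPM per kb at PND 40. Igfbp5 runs from 14.1 CPM per kb at PND 13 to 0.500 CPM per kb in PND 16 large. Pappa is lowest in the competent cohorts.

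Igf1, which encodes the main circulating IGF and lies at chr10:87858265-87937042 (+ strand, GRCm38), ranged more widely in the non-competent pools (0.821 to 32.2 CPM) than in the competent ones (4.67 to 10.1 CPM). Its level in replicates 1, 2 and 3 was 4.01, 0.821 and 8.06 CPM at PND 13 and 1.21, 32.2 and 7.06 CPM in PND 16 small. It was 7.36, 10.1 and 8.96 CPM in PND 16 large and 6.05, 6.69 and 4.67 CPM at PND 40. The single high pool, replicate 2 of PND 16 small, is the pool with the highest granulosa marker sum (570 CPM). The other pools rich in these markers, replicates 1 and 3 of PND 13, were at 4.01 and 8.06 CPM, the former just below the lowest competent pool and the latter within the range of the competent pools. The part of granulosa cells in the Igf1 levels was not tested. Igf1 was not called in any of the 7 comparisons. The log2 fold change of competent vs. non-competent oocytes was -0.28 (SE 0.705, adjusted p = 0.794), and that of PND 40 vs. PND 16 large was -0.60 (SE 0.990, adjusted p = 0.789), although the pools of these 2 cohorts did not overlap. A model of these 2 cohorts alone called the latter (-0.61, adjusted p = 0.0378), and with the 3 pools richest in granulosa markers left out Igf1 was called higher in PND 16 large than at PND 13 (3.42, adjusted p = 0.0426). PND 13 is then replicate 2 alone, which had the lowest Igf1 level of all pools, and is assumed to vary like the other cohorts.

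Igf2, a fetal growth factor gene transcribed from the paternal allele in most mouse tissues (chr7:142650766-142666816, − strand), was between 0.955 and 4.46 CPM in the 12 pools. By cohort it was at 2.54 ± 1.45 CPM at PND 13, 2.82 ± 0.904 CPM in PND 16 small and 2.83 ± 0.875 CPM in PND 16 large (SD, n = 3). At PND 40 it was 3.52 ± 0.811 CPM. Neighbouring cohorts in this order overlapped, and no comparison was called. Competent vs. non-competent oocytes differed by a log2 fold change of 0.24 (SE 0.305, adjusted p = 0.576). The gene shares its interval with the antisense gene Igf2os, with Mir483 and with a second coding gene of the same strand. Whether the counting used strand is not given in the sources used here, so reads of overlapping genes cannot be told apart.

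Igf1r, which encodes the receptor through which both IGFs signal (chr7:67952827-68233668, + strand), fell in the competent oocytes. Its level in replicates 1, 2 and 3 was 148, 124 and 165 CPM at PND 13 and 141, 146 and 126 CPM in PND 16 small. It was 89.5, 97.8 and 93.4 CPM in PND 16 large and 91.4, 89.6 and 94.6 CPM at PND 40. All 6 non-competent pools were above all 6 competent pools, at 141 ± 15.4 and 92.7 ± 3.22 CPM (SD, n = 6). The log2 fold change was -0.61 (SE 0.0711, adjusted p = 5.27e-05). It was close to the 1.5-fold criterion, and without replicate 3 of PND 13 it was -0.56, which does not meet that criterion (adjusted p = 0.000114). With replicates 1 and 3 of PND 13 left out it was -0.53, and with the 3 pools richest in granulosa markers left out -0.48, both again below 1.5-fold. These 3 pools had the 3 highest Igf1r levels. Leaving them out therefore had to make the fall smaller, and these 2 values are no test.

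By cohort, Igf1r fell in PND 16 large vs. PND 13 (log2 fold change -0.64, SE 0.0970, adjusted p = 0.000777) and in PND 40 vs. PND 13 (-0.66, SE 0.0970, adjusted p = 0.000271). Without replicate 3 of PND 13 these were -0.53 and -0.56, below 1.5-fold. Compared with PND 16 small, Igf1r was lower by a log2 fold change of -0.56 in PND 16 large (adjusted p = 0.00399) and -0.58 at PND 40 (adjusted p = 0.000755), both under 1.5-fold. Leaving out replicate 3 of PND 16 small took them to -0.62 and -0.65, past the criterion, and leaving out replicate 3 of PND 40 took the latter to -0.60. Within the competent cohorts the level was even (PND 40 vs. PND 16 large -0.03, SE 0.0969, adjusted p = 0.913), as was the level within the non-competent cohorts (PND 16 small vs. PND 13 -0.08, SE 0.0965, adjusted p = 0.699).

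Igf2r, the receptor gene for IGF2 and mannose 6-phosphate, is read from the maternal allele in most mouse tissues (chr17:12682406-12769664, − strand). It was high in every pool. Its level was 241, 247 and 254 CPM at PND 13 and 246, 191 and 220 CPM in PND 16 small, by replicate. In PND 16 large it was 231, 223 and 223 CPM, and at PND 40 it was 257, 255 and 277 CPM, just above the other 9 pools. PND 40 oocytes exceeded PND 16 small by a log2 fold change of 0.26 (SE 0.0819, adjusted p = 0.0267), which is less than 1.5-fold, and PND 16 large by 0.22 (SE 0.0817, adjusted p = 0.127). Competent and non-competent oocytes differed by 0.07 (SE 0.0790, adjusted p = 0.555). The antisense gene Airn, which overlaps Igf2r, was between 0.0398 and 0.652 CPM.

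Insr, the insulin receptor gene (chr8:3122061-3279617, − strand), was between 6.46 and 19.2 CPM. Its level was 15.7, 8.52 and 19.2 CPM at PND 13, 6.46, 15.1 and 9.55 CPM in PND 16 small, 11.3, 14.01 and 10.99 CPM in PND 16 large and 13.7, 16.9 and 18.4 CPM at PND 40. The cohorts overlapped, with the highest mean at PND 40 (16.3 ± 2.39 CPM) and the lowest in PND 16 small (10.4 ± 4.36 CPM, both SD, n = 3). In the full data no comparison was called, with a log2 fold change of 0.20 in competent oocytes (SE 0.239, adjusted p = 0.568) and of 0.66 in PND 40 vs. PND 16 small (SE 0.312, adjusted p = 0.133). Among the non-competent pools, the 3 highest levels were those of the 3 pools richest in granulosa markers. Leaving out these pools therefore had to raise the log2 fold changes, and the higher values are no test. They were 0.80 in competent oocytes and 1.04 in PND 40 vs. PND 16 small. Leaving out only replicate 2 of PND 16 small, the highest Insr pool of that cohort, gave 1.03 in PND 40 vs. PND 16 small (adjusted p = 0.0239).

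**Figure D2:**
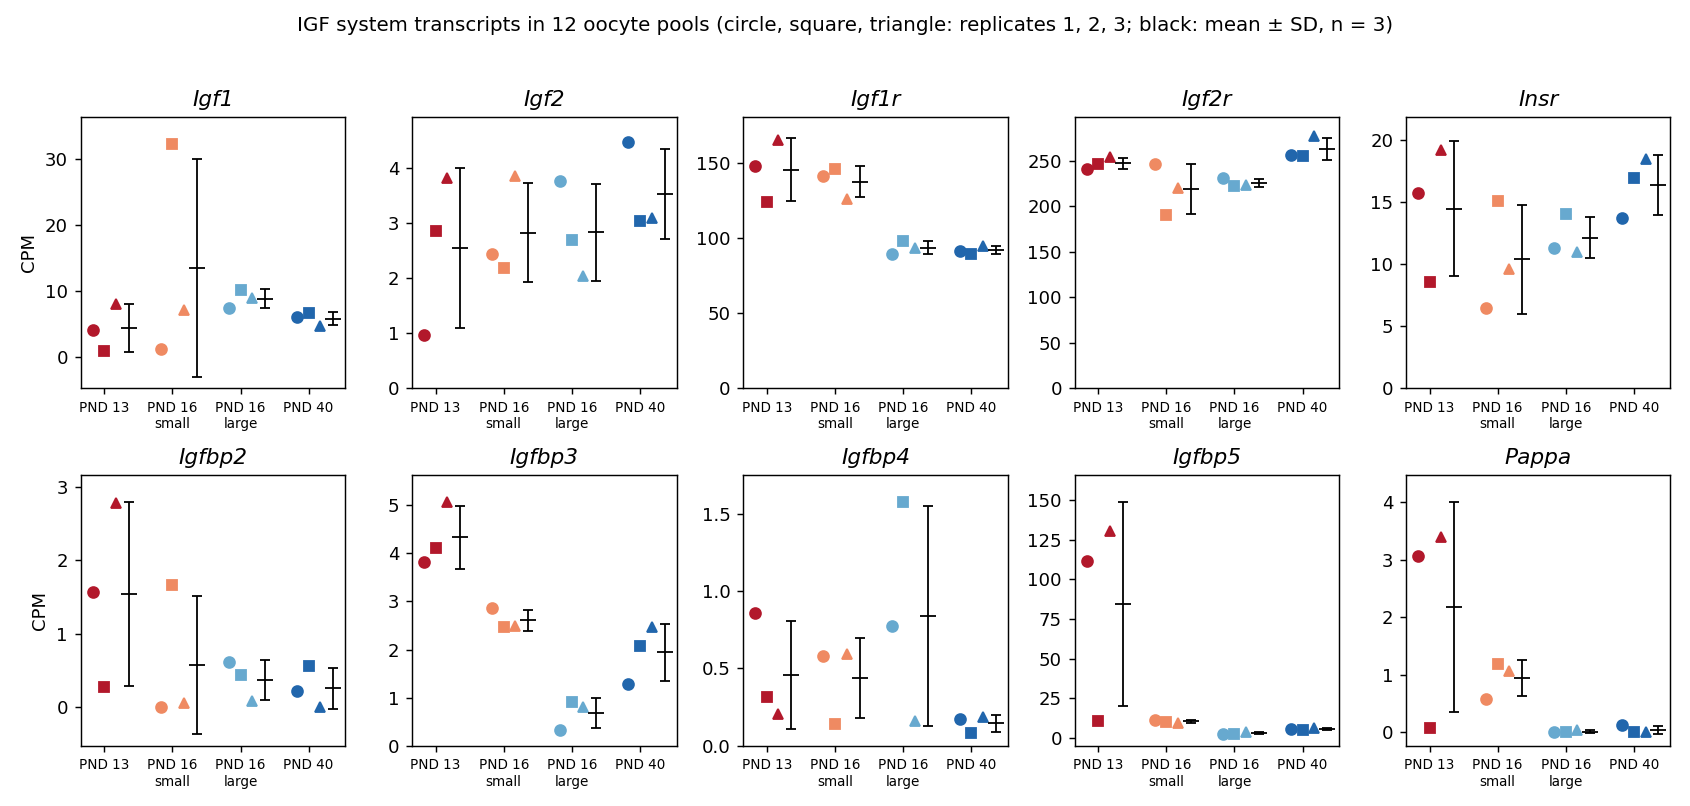
Level of each of the 10 genes in the 12 oocyte pools, in CPM on a linear axis per gene, with circles, squares and triangles for replicates 1, 2 and 3 and black bars for the mean ± SD of 3 pools. Igf1r is higher in all non-competent pools (124 to 165 CPM) than in all competent pools (89.5 to 97.8 CPM), Igf2r is even, and the 2 high Igfbp5 points are replicates 1 and 3 of PND 13.

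Igfbp3 encodes the main carrier of IGFs in the blood (chr11:7206086-7213923, − strand), and its level followed an order of cohorts in which no neighbours overlapped. It was highest at PND 13, with 3.82, 4.10 and 5.08 CPM in replicates 1, 2 and 3, followed by PND 16 small with 2.87, 2.46 and 2.49 CPM. PND 40 came next, with 1.29, 2.07 and 2.46 CPM, and PND 16 large was lowest with 0.327, 0.908 and 0.796 CPM. The gap between the lowest PND 16 small pool (2.465 CPM) and the highest PND 40 pool (2.462 CPM) was far smaller than the spread within either cohort.

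Competent oocytes had less Igfbp3 than non-competent oocytes, by a log2 fold change of -1.40 (SE 0.396, adjusted p = 0.0153). With replicates 1 and 3 of PND 13 left out it was -1.18 and no longer called (adjusted p = 0.0851), and without the 3 pools richest in granulosa markers -1.26 (adjusted p = 0.0938). Igfbp3 fell in PND 16 large vs. PND 13 (-2.67, SE 0.399, adjusted p = 0.000726) and vs. PND 16 small (-1.94, SE 0.396, adjusted p = 0.00862), in pools of the same age and different body weight. A model of only PND 16 large and PND 16 small gave the latter an adjusted p of 0.0565. It also fell in PND 40 vs. PND 13 (-1.16, SE 0.371, adjusted p = 0.0292), a call that was lost without replicate 3 of PND 13 (-1.03, adjusted p = 0.106) or replicate 1 or 2 of PND 40 (-0.93 and -1.20, adjusted p = 0.118 and 0.0719).

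Between the competent cohorts Igfbp3 moved the other way, and was higher at PND 40 (1.94 ± 0.598 CPM) than in PND 16 large (0.677 ± 0.308 CPM, SD, n = 3). The log2 fold change was 1.51 (SE 0.394, adjusted p = 0.0374). The call rested on 3 pools a cohort with 8 to 67 counts each. It was lost on leaving out replicate 1, 2 or 3 of PND 16 large (1.18, 1.77 and 1.64, adjusted p = 0.122, 0.0561 and 0.0953) or replicate 2 or 3 of PND 40 (1.46 and 1.30, adjusted p = 0.107 and 0.140), while the direction was the same in all of these.

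Igfbp2 (chr1:72824503-72852474, + strand), a binding protein gene that prefers IGF2 as its ligand, was detected mainly in the pools with high granulosa markers. Its level was 1.58, 0.274 and 2.78 CPM at PND 13 and 0, 1.66 and 0.0593 CPM in PND 16 small, by replicate. In PND 16 large it was 0.614, 0.434 and 0.0796 CPM, and at PND 40 it was 0.214, 0.557 and 0 CPM. The 3 levels above 1 CPM were those of replicates 1 and 3 of PND 13 and replicate 2 of PND 16 small, the 3 pools with the highest granulosa marker sums, and the part of granulosa cells in them was not tested. No comparison was called, and the log2 fold change of competent oocytes was -1.74 (SE 0.968, adjusted p = 0.189).

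Igfbp4 (chr11:99041244-99054392, + strand), a binding protein gene whose product is a substrate of PAPP-A, was the lowest of these 4 binding protein genes, at 2 to 40 counts a pool. Its level was 0.860, 0.313 and 0.205 CPM at PND 13, 0.583, 0.142 and 0.593 CPM in PND 16 small, 0.777, 1.58 and 0.159 CPM in PND 16 large and 0.172, 0.0796 and 0.184 CPM at PND 40. The PND 40 pools were thus low and even, and PND 16 large ranged from the level of PND 40 to the highest of the 12 pools. At this depth no difference was called, with a log2 fold change of PND 40 vs. PND 16 large of -2.49 (SE 0.931, adjusted p = 0.132).

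Igfbp5 (chr1:72857932-72874884, − strand), whose product binds IGFs, matrix and cell surfaces and is cut by PAPP-A, lies 5457 bp from Igfbp2, which is read towards it. Its level was 112, 10.8 and 131 CPM at PND 13 and 11.4, 10.3 and 9.67 CPM in PND 16 small, in replicates 1, 2 and 3. It was 2.78, 2.60 and 3.62 CPM in PND 16 large and 5.66, 5.34 and 6.36 CPM at PND 40. The PND 13 pools were thus split, with replicates 1 and 3 far above all other pools and replicate 2 at the level of PND 16 small. The other 3 cohorts were tight and did not overlap, in the order PND 16 small (10.5 ± 0.883 CPM), PND 40 (5.78 ± 0.522 CPM) and PND 16 large (3.00 ± 0.544 CPM, SD, n = 3).

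Igfbp5 was not called within the non-competent or within the competent cohorts, 2 comparisons of pools that were also used to choose it. The values of these comparisons are therefore descriptions and not tests. From PND 13 to PND 16 small the log2 fold change was -3.01 (SE 0.717, adjusted p = 0.0750). Without replicate 2 of PND 13, the low pool of that cohort, it was -3.55 and called (adjusted p = 9.3e-08). DESeq2 called it in the full data (-3.02, adjusted p = 0.000834). From PND 16 large to PND 40 it was 0.95 (SE 0.739, adjusted p = 0.513), although the pools did not overlap. The spread in the model came from all 12 pools, PND 13 included, and a model of PND 40 and PND 16 large alone called it (0.94, adjusted p = 0.00876).

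Between competent and non-competent oocytes, which chose this gene, Igfbp5 was at 4.39 ± 1.60 and 47.5 ± 57.5 CPM (SD, n = 6), a log2 fold change of -3.43 (SE 0.845). Without replicate 3 of PND 13 it was -2.81, and with replicates 1 and 3 of PND 13 left out -1.26. Without these 2 pools the value was thus much smaller, and the lowest non-competent pool (9.67 CPM) was still above the highest competent pool (6.36 CPM). Relative to PND 13, the log2 fold change was -4.81 (SE 0.791) in PND 16 large and -3.87 (SE 0.747) at PND 40. With replicates 1 and 3 of PND 13 left out they were -1.85 and -0.90. Relative to PND 16 small, it was -1.80 (SE 0.738) in PND 16 large, which was not called. DESeq2, a model of these 2 cohorts alone and the fit without the 3 pools richest in granulosa markers did call it, at -1.80 in each.

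Several granulosa markers were high in the same 2 PND 13 pools. Inha, the inhibin alpha subunit gene of granulosa cells, was at 97.1, 2.34 and 143 CPM in replicates 1, 2 and 3 of PND 13, and Amh, the anti-Müllerian hormone gene, at 33.5, 1.02 and 30.3 CPM. In replicate 2 of PND 16 small, Inha and Amh were at 130 and 32.0 CPM and Igfbp5 at 10.3 CPM, between the other PND 16 small pools. Other granulosa markers did not all compare alike. Foxl2 was at 10.8 CPM in that pool, beside 18.6 and 20.0 CPM in replicates 1 and 3 of PND 13. Inhbb was at 155 CPM there, beside 65.4 and 79.1 CPM. Cyp19a1 was at 21.4, 12.7 and 14.5 CPM in the PND 13 pools and 20.3 to 24.3 CPM in PND 16 large. Kitl was at 30.3, 21.3 and 53.6 CPM in PND 16 small, lowest in replicate 2. The granulosa list thus did not move as a whole. Theca markers summed to 63.0, 25.7 and 83.9 CPM in the PND 13 pools and 43.8 CPM in replicate 2 of PND 16 small. Most of these sums was Hsd3b1 (41.2, 1.37, 50.1 and 28.5 CPM) and Ptch1 (16.7, 20.2, 28.4 and 8.96 CPM). The theca marker Cyp11a1 was even in the same pools (2.91, 2.93, 2.54 and 2.37 CPM), so the list did not move as a whole. Of the 14 granulosa markers, 3 were called lower and none higher in competent oocytes, beside 11.2% and 3.78% of all genes, with a median log2 fold change of -1.61, beside -0.0046 over all genes tested. The part of granulosa or theca cells in the Igfbp5 levels was not tested.

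**Figure D3:**
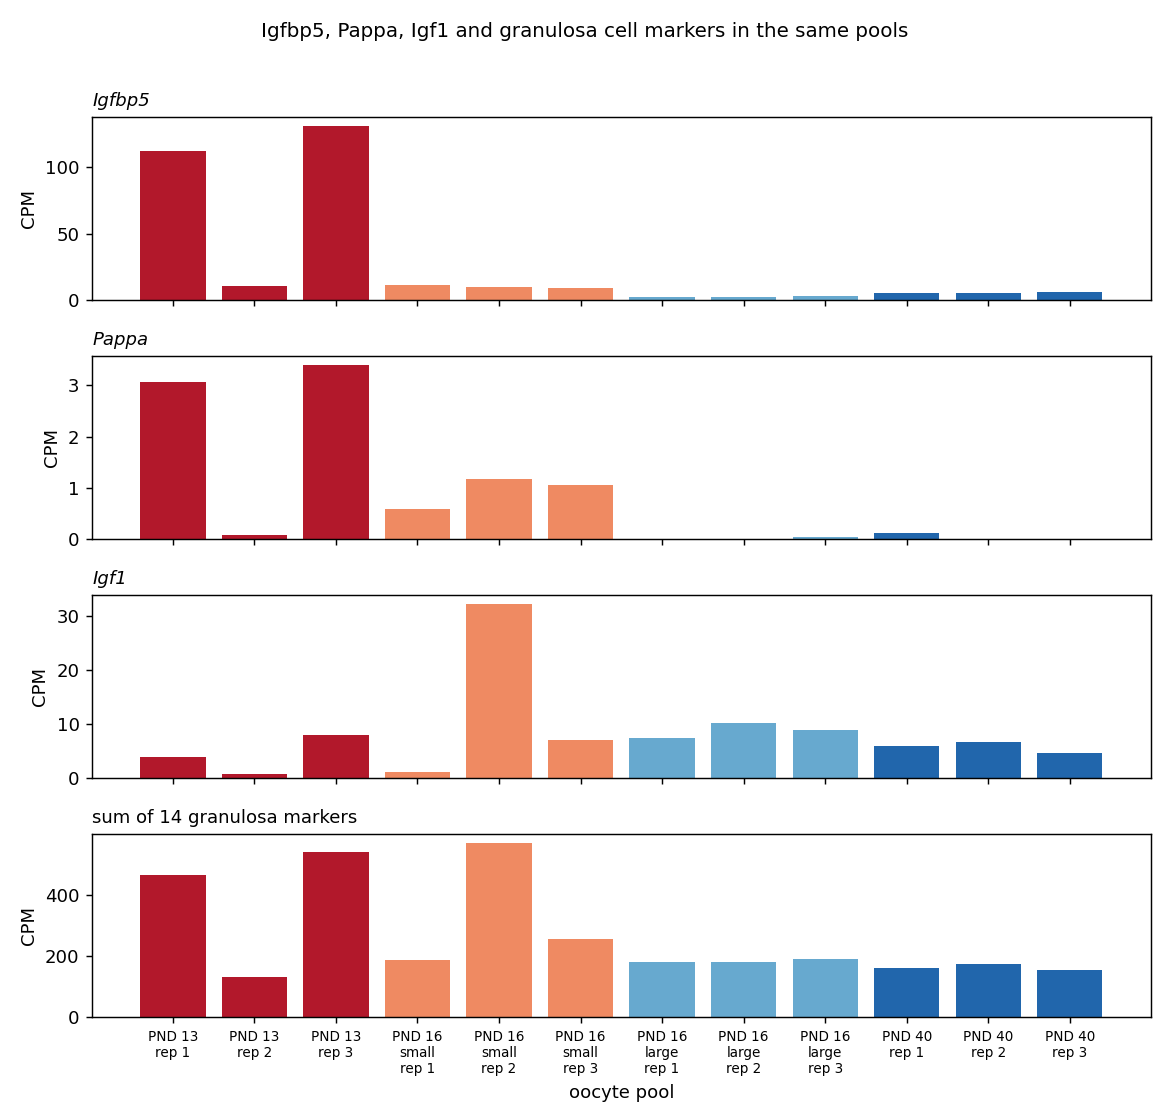
Levels of Igfbp5, Pappa and Igf1 and the summed level of the 14 granulosa markers in each pool, in CPM on linear axes that start at 0, 1 bar per pool. Igfbp5 and Pappa are highest in replicates 1 and 3 of PND 13, Igf1 is highest in replicate 2 of PND 16 small (32.2 CPM), and all 3 pools have marker sums of at least 466 CPM.

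Pappa (chr4:65124174-65357509, + strand), the gene of the protease that cuts IGFBP4 and IGFBP5, was detected in the non-competent pools and at or near 0 counts in the competent ones. Its level was 3.06, 0.0781 and 3.40 CPM at PND 13 (64, 2 and 83 counts) and 0.583, 1.19 and 1.07 CPM in PND 16 small (12, 25 and 18 counts), by replicate. In PND 16 large it was 0, 0 and 0.0398 CPM (0, 0 and 1 count), and at PND 40 it was 0.129, 0 and 0 CPM (3, 0 and 0 counts). A count of 0 allows up to 3 counts, which is 0.110 to 0.178 CPM in these pools. Replicate 2 of PND 13 was below that limit, as were the competent pools except replicate 1 of PND 40, which was at it.

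PND 40 vs. PND 16 small uses none of the pools in which Pappa was first seen to differ, and in this comparison it fell (log2 fold change -4.37, SE 1.32, adjusted p = 0.0238). Pappa passed the filter on low counts through non-competent pools alone: 5 of them, and 0 competent pools, reached its cutoff of 0.415 CPM, so a test of a gene kept in this way is no independent support for the difference. Without the filter the value was -4.36 (adjusted p = 0.0235). With this few counts the fitted value depends on the prior count of the model and is no bound. By counts alone, PND 16 small had 23.7 times the level of PND 40, with an exact 95% interval of 7.69 to 118 that covers counting error only. All 3 PND 16 small pools were above all 3 PND 40 pools. The call was lost without replicate 2 or 3 of PND 40 (-3.83 and -3.80, adjusted p = 0.0846 and 0.0851), and without replicate 1 of PND 40 the value was -7.47 (adjusted p = 0.0239).

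In the comparisons that share pools with its choice, Pappa is described only. By counts, PND 13 had 157 times (interval 27.8 to 6254) the level of PND 16 large and 52.9 times (17.8 to 260) that of PND 40. PND 16 small had 70.4 times (12.1 to 2830) the level of PND 16 large, at the same age. All non-competent pools together had 59.3 times (22.8 to 220) the level of the competent pools. The fitted log2 fold change of competent oocytes was -5.60 (SE 0.994), and -4.49 without replicates 1 and 3 of PND 13, where the remaining signal was that of PND 16 small. Without replicate 1 of PND 40 it was -6.89. For PND 13 alone the signal lay in replicates 1 and 3, and with these left out the log2 fold change relative to the 1 remaining pool, which held 2 counts, was -2.16 in PND 16 large and -0.85 at PND 40. Within PND 16 small, replicates 2 and 3 had like Pappa levels (1.19 and 1.07 CPM) beside granulosa marker sums of 570 and 254 CPM, or 452 and 120 CPM without Nr5a2. The part of somatic cells in these levels was not tested.

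Across the system, competent vs. non-competent oocytes had 4 of the 10 genes called lower (Igf1r, Igfbp3, Igfbp5 and Pappa) and none higher. Of all 13943 genes tested, 15% were called, 3.78% as higher and 11.2% as lower. The median log2 fold change of the 10 genes was -0.45, beside -0.0046 over all genes. The pools of the 2 groups did not overlap for 3 of the 10, Igf1r, Igfbp3 and Igfbp5, beside 14.7% of all genes. Since Igfbp5 and Pappa entered through differences of this kind, nothing is read from these counts.

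PND 16 large vs. PND 13 had Igf1r, Igfbp3, Igfbp5 and Pappa called lower, 4 of 10 genes, beside 13.3% of all genes called, 3.52% as higher and 9.8% as lower. The same 4 genes were called lower in PND 40 vs. PND 13, beside 18.9% of all genes called, 6.31% as higher and 12.6% as lower. Pools did not overlap for 5 of 10 genes in each, beside 45.5% and 50.8% of all genes. The median log2 fold changes of the 10 genes were -0.45 and -0.91, beside -0.04 and 0.0044 over all genes. Nothing is read from these counts either, for the same reason.

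At PND 16, large vs. small had Igfbp3 and Pappa called lower, 2 of 10 genes, beside 6.19% of all genes called, 1.43% as higher and 4.76% as lower. The pools of Igf1r, Igfbp3, Igfbp5 and Pappa did not overlap, 4 of 10 genes, beside 31.5% of all genes, and the median log2 fold change was -0.59, beside -0.02 over all genes. Igfbp5 and Pappa were chosen on comparisons that share pools with this one, so nothing is read from these counts. Pappa there is described only, at -5.67 (SE 1.51), and lost its call without replicate 1, 2 or 3 of PND 16 large or replicate 3 of PND 16 small (adjusted p = 0.122, 0.102, 0.0663 and 0.0591).

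PND 40 vs. PND 16 small had Pappa alone called, as lower, 1 of 10 genes, beside 17.2% of all genes called, 6.89% as higher and 10.3% as lower. Pools did not overlap for 5 of the 10 genes (Igf1r, Igf2r, Igfbp3, Igfbp5 and Pappa), beside 43.9% of all genes, with medians of -0.72 and -0.01 on the log2 scale. PND 40 vs. PND 16 large had Igfbp3 alone called, as higher, 1 of 10 genes, beside 3.66% of all genes called, 2.34% as higher and 1.32% as lower. There the pools of Igf1, Igf2r, Igfbp3 and Igfbp5 did not overlap, 4 of 10 genes, beside 39.3% of all genes, with medians of 0.27 and 0.0037. The shares of the 10 genes that did not overlap were thus near those of all genes in both comparisons. Igfbp5 was chosen on pools that both comparisons use, so nothing more is read from these counts.

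In PND 16 small vs. PND 13, edgeR's quasi-likelihood test called 0 of the 10 genes, beside 0.373% of all genes, 0.179% as higher and 0.194% as lower. Igfbp5 was the only one of the 10 with an unadjusted p under 0.05 there, and DESeq2 called 1, Igfbp5. Only the pools of Igfbp3 did not overlap, 1 of 10 genes, beside 18.1% of all genes, and the medians were -0.33 and -0.026. The 7 comparisons share cohorts, so their counts are not independent of one another.

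**Figure D4:**
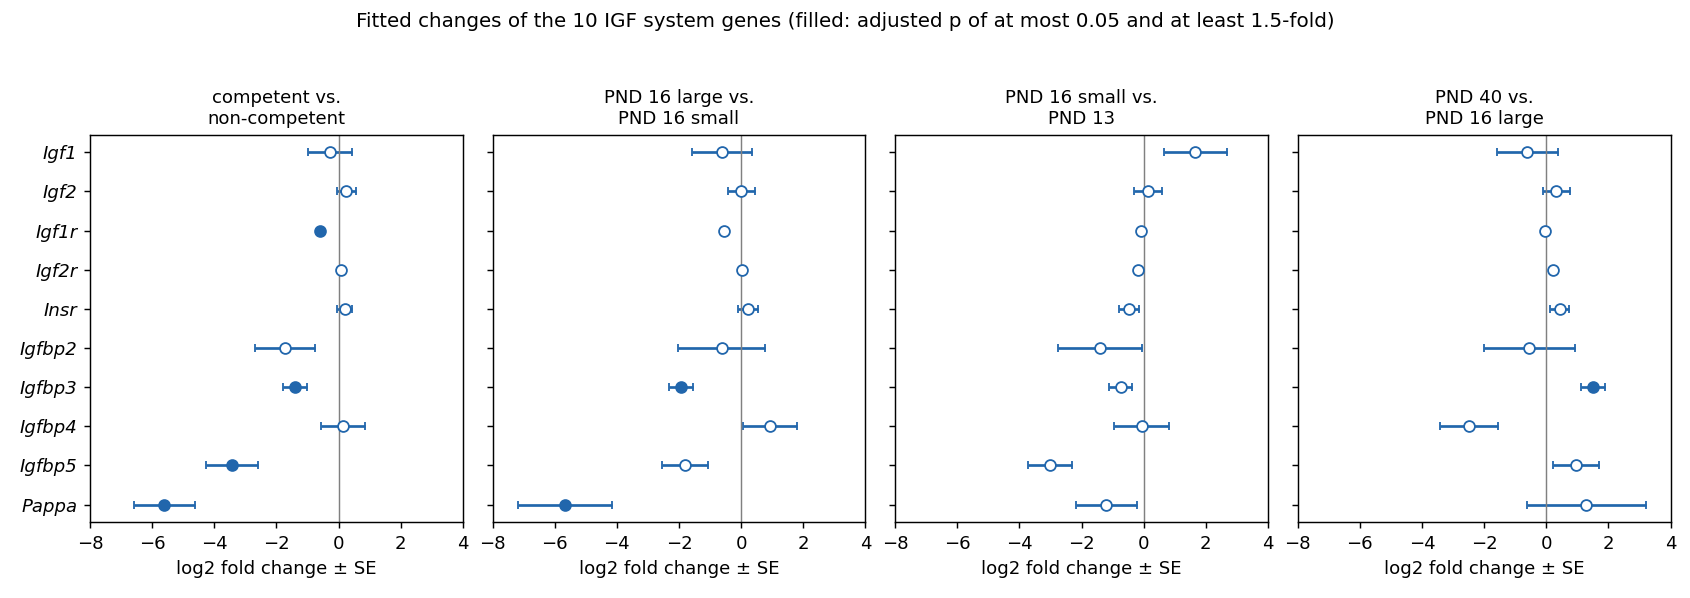
Log2 fold change ± SE of each of the 10 genes in 4 comparisons, fitted in edgeR, with filled points for genes that were called. Igfbp3 is filled on both sides of 0, at -1.94 in PND 16 large vs. PND 16 small and 1.51 in PND 40 vs. PND 16 large, and no point is filled in PND 16 small vs. PND 13.

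The wider pathway was followed through 41 further genes, other ligands, binding proteins, proteases and their inhibitors, and the signalling proteins below the receptors, of which 34 were tested. In competent vs. non-competent oocytes 2 were called higher and 5 lower, beside 3.78% and 11.2% of all genes, and their median log2 fold change was 0.0060. Irs2, a docking protein gene for the activated receptors, was at 3.30, 3.75 and 5.49 CPM at PND 13, 3.11, 2.42 and 2.02 CPM in PND 16 small, 1.35, 1.89 and 1.43 CPM in PND 16 large and 0.858, 0.199 and 0.808 CPM at PND 40. No competent pool reached the lowest non-competent pool, and the log2 fold change was -1.62 (SE 0.408, adjusted p = 0.00824). Pik3r2, a regulatory subunit gene of PI3K, fell by a log2 fold change of 0.85 (SE 0.191, adjusted p = 0.00417). Sos1 and Sos2, which encode exchange factors that load Ras, had log2 fold changes of -0.77 and -0.66 (adjusted p = 0.000195 and 0.000277). Gsk3b, a kinase gene whose product is inhibited by Akt, was at -0.66 (adjusted p = 6.58e-05).

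Grb14, whose product inhibits the insulin receptor, and Igfbp7, a gene related to the binding proteins whose product has low affinity for IGFs, rose. Grb14 was at 1.00, 0.547 and 0.901 CPM at PND 13, 0.146, 1.33 and 0.356 CPM in PND 16 small, 2.99, 3.71 and 2.79 CPM in PND 16 large and 1.72, 1.23 and 0.698 CPM at PND 40. PND 16 large was thus above all other pools, and PND 40 overlapped the non-competent cohorts. The log2 fold change of competent oocytes was 1.60 (SE 0.498, adjusted p = 0.0244), and the call was lost without replicate 1 or 2 of PND 16 large (1.49 and 1.38, adjusted p = 0.0534 and 0.0607). The 3 pools richest in granulosa markers had the 3 highest Grb14 levels of the non-competent pools. Leaving them out therefore had to raise the log2 fold change, and the value of 2.61 is no test. Igfbp7 had a log2 fold change of 0.74 (SE 0.208, adjusted p = 0.0149).

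Stc1, which encodes stanniocalcin 1, an inhibitor of PAPP-A, was called higher in PND 40 vs. PND 16 large, 1 of the 34 genes by edgeR, beside 3.66% of all genes. DESeq2 called 2, Stc1 and Irs2, the latter at -1.34 (adjusted p = 0.0399), beside -1.32 in edgeR (adjusted p = 0.106). Stc1 was at 0.430, 0.156 and 0.409 CPM at PND 13, 0.146, 0.0948 and 0.593 CPM in PND 16 small, 0.0409, 0.197 and 0.119 CPM in PND 16 large and 1.12, 1.19 and 2.20 CPM at PND 40. Stc1 was higher in all PND 40 pools than in the other 9 pools, where it had 1 to 10 counts (0.0409 to 0.593 CPM). Its log2 fold change was 3.60 (SE 0.829, adjusted p = 0.0212). Leaving out any 1 of the 6 pools of the 2 cohorts (replicates 1, 2 and 3 of PND 16 large and of PND 40) gave 3.20, 4.13, 3.59, 3.77, 3.74 and 3.21, with adjusted p of 0.0959, 0.0543, 0.0994, 0.0507, 0.0573 and 0.101.

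**Figure D5:**
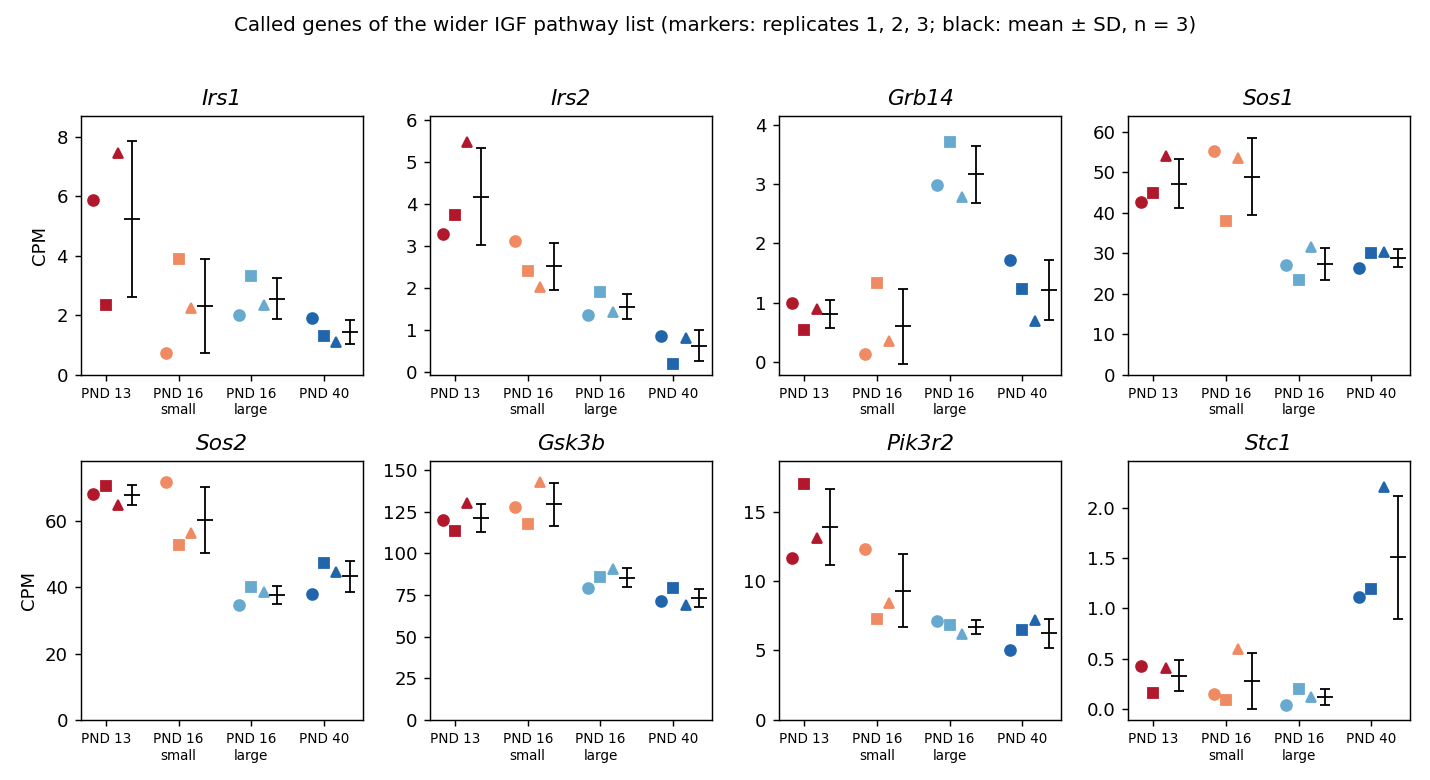
Levels of 8 called genes of the wider pathway in the 12 pools, in CPM on a linear axis per gene, with circles, squares and triangles for replicates 1, 2 and 3 and black bars for the mean ± SD of 3 pools. Irs2, Sos1, Sos2, Gsk3b and Pik3r2 are lower in the competent cohorts, Grb14 is highest in PND 16 large (2.79 to 3.71 CPM) and Stc1 at PND 40 (1.12 to 2.20 CPM).

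In the other comparisons across competence up to 8 of the 34 pathway genes were called. PND 16 large vs. PND 16 small had Grb14 called higher (2.35) and Sos1 (-0.84), Sos2 (-0.68) and Gsk3b (-0.60) lower, 1 and 3 of 34 genes beside 1.43% and 4.76% of all genes. Grb14 lost its call without replicate 1, 2 or 3 of PND 16 large or replicate 1 or 3 of PND 16 small (adjusted p = 0.0893, 0.0901, 0.0565, 0.0525 and 0.0852). Gsk3b was below 1.5-fold without replicate 1 of PND 16 large or replicate 3 of PND 16 small (-0.55 and -0.53), and Sos2 without replicate 1 of PND 16 small (-0.53). In PND 16 large vs. PND 13, Grb14 (1.95) and Foxo3 (0.62), the gene of a forkhead factor that Akt inactivates, were called higher, and Irs2 (-1.42), Pik3r2 (-1.06), Sos2 (-0.85) and Sos1 (-0.78) lower, 2 and 4 of 34 beside 3.52% and 9.8%. The Grb14 call was lost on leaving out any 1 of the 6 pools, that of Irs2 without replicate 3 of PND 13 or any replicate of PND 16 large, and that of Foxo3 without replicate 3 of PND 13 or replicate 1 of PND 16 large.

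PND 40 vs. PND 13 had Irs2 (-2.74), Irs1 (-1.86), Pik3r2 (-1.16), Gsk3b (-0.73), Sos1 (-0.71) and Sos2 (-0.65) called lower and Stc1 (2.17) and Igfbp7 (0.89) higher, 6 and 2 of 34 beside 12.6% and 6.31% of all genes. Irs1, a second docking protein gene, lost its call without replicate 3 of PND 13 or replicate 2 or 3 of PND 40 (adjusted p = 0.0837, 0.0638 and 0.0714). Stc1 lost it on leaving out any 1 pool, Igfbp7 without replicate 1 or 3 of PND 13 or replicate 1 or 2 of PND 40, and Sos2 without replicate 1 of PND 40. PND 40 vs. PND 16 small had Irs2 (-2.01), Gsk3b (-0.82), Sos1 (-0.76) and the adaptor gene Grb2 (-0.64) called lower and Stc1 (2.46), Igfbp7 (0.91) and the kinase gene Akt1 (0.61) higher, 4 and 3 of 34 beside 10.3% and 6.89%. There, Stc1 lost its call without any 1 of the pools except replicate 3 of PND 16 small, where it was 3.58, and Igfbp7 without replicate 1 or 2 of either cohort. Grb2 lost it without replicate 3 of PND 40 or replicate 1 of PND 16 small, and Akt1 without replicate 3 of PND 16 small. In PND 16 small vs. PND 13, edgeR's quasi-likelihood test and DESeq2 both called 0 of the 34, and 9 had an unadjusted p under 0.05 in edgeR.

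Among the 11948 genes that averaged 1 CPM or more, those whose log2 CPM over the 12 pools was most like that of Igfbp5 were Hdac4 (Pearson's r = 0.980), Synm (0.958), Neto2 (0.934), Ddit4l (0.931) and Mark1 (0.927). For Pappa they were Nr5a2 (0.957), Lcorl (0.953), Knop1 (0.942), Kdm5b (0.940) and Plin3 (0.940). Nr5a2, a nuclear receptor gene in the list of granulosa markers, had its 2 highest levels in replicates 1 and 3 of PND 13. In PND 16 small it was at 127, 118 and 134 CPM by replicate. Its lowest level in that cohort was thus in replicate 2, the pool with the highest granulosa marker sum. The 12 points are the same libraries for each gene and share their cohorts and their granulosa marker levels, so these values describe likeness of pattern only.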

How the data were processed

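Gene expression was measured by RNA-Seq of ribosomal RNA-depleted, directional libraries from 12 oocyte pools. The authors deposited raw counts, reads per gene without normalization, and log2 values, which are log2(count / size factor of the pool + 1). The submitters' processing notes name FastQC, STAR, HTSeq, DESeq2, DESeq and HOMER and the build mm10. Versions, the annotation and the strand setting of the counting are not given in the sources used here. Cohorts and replicate numbers were taken from the sample labels, and the p-values measure the spread between these pools.

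Analyses used R 4.3.3, edgeR 4.0.16, limma 3.58.1, DESeq2 1.42.0 and Python 3.11.15. Genes were kept by filterByExpr by cohort (minimum count 10; 13943 genes, all 10 members among them) and scaled by TMM (factors 0.955 to 1.07). The 6 pairwise comparisons were contrasts in 1 robust quasi-likelihood model of the 4 cohorts, and meiotic competence was compared in a model of 2 groups. Tests were two-sided, with Benjamini-Hochberg adjustment over all genes tested. Each SE was derived as |log2 fold change| / √F. The fits were checked on simulated counts. For correlations, 2 was the prior count of log2 CPM. Counting intervals and limits cover counting error only, since no molecular identifiers were used. Positions and exon lengths are those of GENCODE M21 on GRCm38, and promoters those of RefSeq on GRCm38.p6.

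The members and all lists were chosen with earlier results of these data known. Named genes were the members, called genes of the pathway list (up to 8 per comparison) and, for Igfbp5 and Pappa, the 5 genes with the most similar pattern. Alternatives were DESeq2, other scalings, other filters, limma on the deposited log2 values, other models, no fold criterion, the replicate number as a block and leaving out each pool. Leaving out replicates 1 and 3 of PND 13, with or without replicate 2 of PND 16 small, was added after seeing the data.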

Additional observations from a re-analysis of the deposited data

Results flagged for a closer look

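Each of the 10 genes was examined for a single pool far from the others in the 6 non-competent and in the 6 competent pools, which makes 20 groups, and 2 had one. A pool was taken as far off where its gap to the nearest pool, divided by the range of the group, exceeded Dixon's 95% critical value, a level that chance exceeds in about 1 in 20 groups.

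Igf1 was at 32.2 CPM in replicate 2 of PND 16 small, whereas the other 5 non-competent pools were between 0.821 and 8.06 CPM. That pool had the highest granulosa marker sum of all 12 (570 CPM). Pappa was at 0.129 CPM (3 counts) in replicate 1 of PND 40, whereas the other 5 competent pools held 0 or 1 count, so the gap is one of 2 counts.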

How the results depend on the processing

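The 4 genes called in competent vs. non-competent oocytes were called under each other test, scaling, filter or model tried. Leaving out 1 pool gave 3 to 4, and leaving out replicates 1 and 3 of PND 13 gave 2. For PND 40 vs. PND 16 large, 1 gene was called, 3 in a model of those cohorts alone, and 0 to 1 on leaving out 1 pool. For PND 16 small vs. PND 13, 0 were called, 1 with DESeq2, and 0 to 1 on leaving out 1 pool. For PND 16 large vs. PND 16 small, 2 were called (Igfbp3 and Pappa), and 1 to 2 on leaving out 1 pool. There, DESeq2 and the fit without the 3 pools richest in granulosa markers added Igfbp5, the fit without the fold criterion added Igf1r, and a model of those cohorts alone called Igfbp5 in place of Igfbp3. For PND 40 vs. PND 16 small, 1 was called. It was 2 with DESeq2, RLE factors, a filter of 1 CPM in 3 pools or limma, 3 without the fold criterion, in a model of those cohorts alone or without the 3 pools richest in granulosa markers, and 0 to 2 on leaving out 1 pool. For PND 16 large vs. PND 13, 4 were called, 2 without replicates 1 and 3 of PND 13, and 3 to 4 on leaving out 1 pool. For PND 40 vs. PND 13, 4 were called, 1 under either set of pools left out, and 2 to 4 on leaving out 1 pool. Without replicates 1 and 3, PND 13 is 1 pool and is assumed to vary like the other cohorts. Where a call moved, the cause was not tested, and no called gene changed direction under the alternatives run.

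Same-numbered pools did not deviate together (correlations of their deviations from the cohort means -0.44 to 0.08), so the pools were not paired by number. The sample labels do not say whether same-numbered pools were prepared together. With the replicate number as a block, the members called were 4, 1, 0, 2, 1, 4 and 4 in the 7 comparisons, as without it. Over all genes, the block gave 10 calls in PND 16 small vs. PND 13 beside 52 without it, DESeq2 gave 361 and a model of those cohorts alone 2. For PND 40 vs. PND 16 large there were 510 calls, 782 with DESeq2 and 1081 in a model of those cohorts alone, and for PND 16 large vs. PND 16 small 863 calls and 475 in such a model. Under scaling by total counts, the median of all genes was -0.12 in PND 16 small vs. PND 13, where the share of calls that were lower went from 51.9% to 76.0%, and it was -0.13 in PND 16 large vs. PND 13. Depth limits Igfbp2, Igfbp4 and Pappa, with 0 to 83 counts a pool.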
